A study of Mus musculus with 13 samples.

Results

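A set of 10 insulin pathway genes was read in every library by gene symbol, out of 19838 genes in the deposited tables. They are Insr, Irs1, Irs2, Pik3r1, Pdpk1, Akt1, Akt2, Tbc1d1, Tbc1d4 and Slc2a4, and all 10 were found. The list was set by gene name, with earlier results of these data known, and no measured value enters the rule.

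The study asked how raised FOXM1, a transcription factor of the cell cycle, bears on tissues of aged mice. The groups sequenced were aorta dNdK with 2 libraries, aorta Rosa26 with 4, muscle dNdK with 3 and muscle Rosa26 with 4. The dNdK mice carry GFP-FOXM1dNdKtg/+Rosa26-rtTAtg/+, a tagged FOXM1 transgene together with the rtTA activator at Rosa26. The Rosa26 mice are labelled GFP-FOXM1dNdK-/-Rosa26-rtTAtg/+, so the controls carry the activator too and lack only the transgene. All 13 libraries come from FVBxC57BL/6 mice of 88 weeks, and the muscle is the gastrocnemius of the hind limb. The labels give no doxycycline dose, although rtTA needs that drug to drive a gene, and they give no sex. The deposited names give each library of a group its own animal number, and 4 of the 9 animals gave both tissues.

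Insulin binds a receptor kinase on the cell surface, which phosphorylates adaptor proteins. The adaptors recruit phosphoinositide 3-kinase, its lipid product brings the kinases PDK1 and AKT to the membrane, and AKT restrains a pair of RAB GTPase activating proteins. Release of those brakes moves vesicles that carry GLUT4, the insulin-responsive glucose transporter, to the surface of muscle and fat cells. Skeletal muscle is known as the main site of insulin-driven glucose uptake, while the vessel wall and the fat around it respond on a smaller scale.

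Libraries held 3919526 to 13683952 gene counts, and levels below are CPM (counts relative to library size) scaled by TMM over the 13 libraries. Each gene is read through its own amplicon, so levels are compared between libraries and not between genes. The 10 most abundant genes took 9.32% to 14.6% of the counts in aorta and 23.3% to 32.8% in muscle, so scaling matters between tissues. With plain library sizes in place of TMM, the median of all genes, aorta over muscle, moved up by 0.88 on the log2 scale in Rosa26 mice and by 0.58 in dNdK mice. Summed heart muscle markers reached 2850 TMM-scaled CPM in aorta dNdK 2, 2770 in aorta Rosa26 1 and 1190 in aorta Rosa26 2, against 12.9 in aorta dNdK 1 and at most 12.7 in the other aorta Rosa26 libraries. Aorta libraries also held fat RNA, with adipocyte marker sums of 17100 to 21300 in dNdK and 14200 to 20200 in Rosa26. Muscle dNdK 3 had an adipocyte sum of 15500, against 733 to 1510 in the other muscle libraries. The 8 brown adipocyte markers, not in that sum, summed to 8020 to 8270 in aorta dNdK and 6680 to 9680 in aorta Rosa26. In muscle they summed to 820 to 1880 in dNdK, highest in muscle dNdK 3, and 638 to 792 in Rosa26. Of these, Ucp1 stood at 4570 to 5010 TMM-scaled CPM in aorta dNdK and 3840 to 6920 in aorta Rosa26. Of the smooth muscle markers Myh11 stood at 52.5 to 82 and Acta2 at 64.5 to 245 TMM-scaled CPM in the 6 aorta libraries. Tagln was at 0 in 5 of them. The muscle libraries overlapped these ranges, with Myh11 at 30 to 86 and Acta2 at 49.3 to 137. All 8 smooth muscle markers summed to 224 to 430 in aorta and 1120 to 2230 in muscle, where Synpo2 alone stood at 876 to 1970. Of 7 tested in Rosa26 mice, 3 were higher in aorta and 2 lower. In muscle Myh7 of slow fibres was at 0 in every library and Atp2a2, another slow fibre marker, stood at 94.3 to 215. The 8 slow fibre markers summed to 177 to 355 in muscle dNdK and 105 to 176 in muscle Rosa26. Of 7 tested, 6 were estimated higher in dNdK and 0 had an edgeR adjusted p under 0.05. In muscle dNdK 1 Myl2 stood at 95.5, Tnnc1 at 31.8 and Tnni1 at 25.8. The other muscle libraries held at most 20.5, 9.84 and 10.2, while Atp2a2, Myl3 and Casq2 were not highest in muscle dNdK 1. Acta1 of skeletal muscle stood at 32600 to 58300 TMM-scaled CPM in muscle, against 0.69 to 5.1 in aorta. Foxm1 had 2 and 5 counts in aorta dNdK against 3, 24, 13 and 2 in aorta Rosa26 (log2 fold change -1.38 ± 0.96 SE, adjusted p = 0.763 by edgeR) and 0 to 3 counts in every muscle library. The labels do not say whether its amplicon reads the transgene, so it does not check the genotype.

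No member passed the test between genotypes in either tissue. Between the tissues 2 of 10 members passed in dNdK mice, where 15.8% of all genes did, and 7 of 9 passed in Rosa26 mice, where 58.4% of all genes did, 5 of them lower in aorta and 2 higher. The adaptors Irs1 and Irs2 were lower in aorta in both genotypes, and Tbc1d1 was close to undetected there. Akt1 and Pik3r1 were the 2 that stood higher in aorta. Slc2a4 had the smallest genotype p of the members in aorta, with both dNdK libraries above all 4 Rosa26 libraries, but its adjusted p was 0.757. The plot of the members by library shows these levels.

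**Figure D1:**
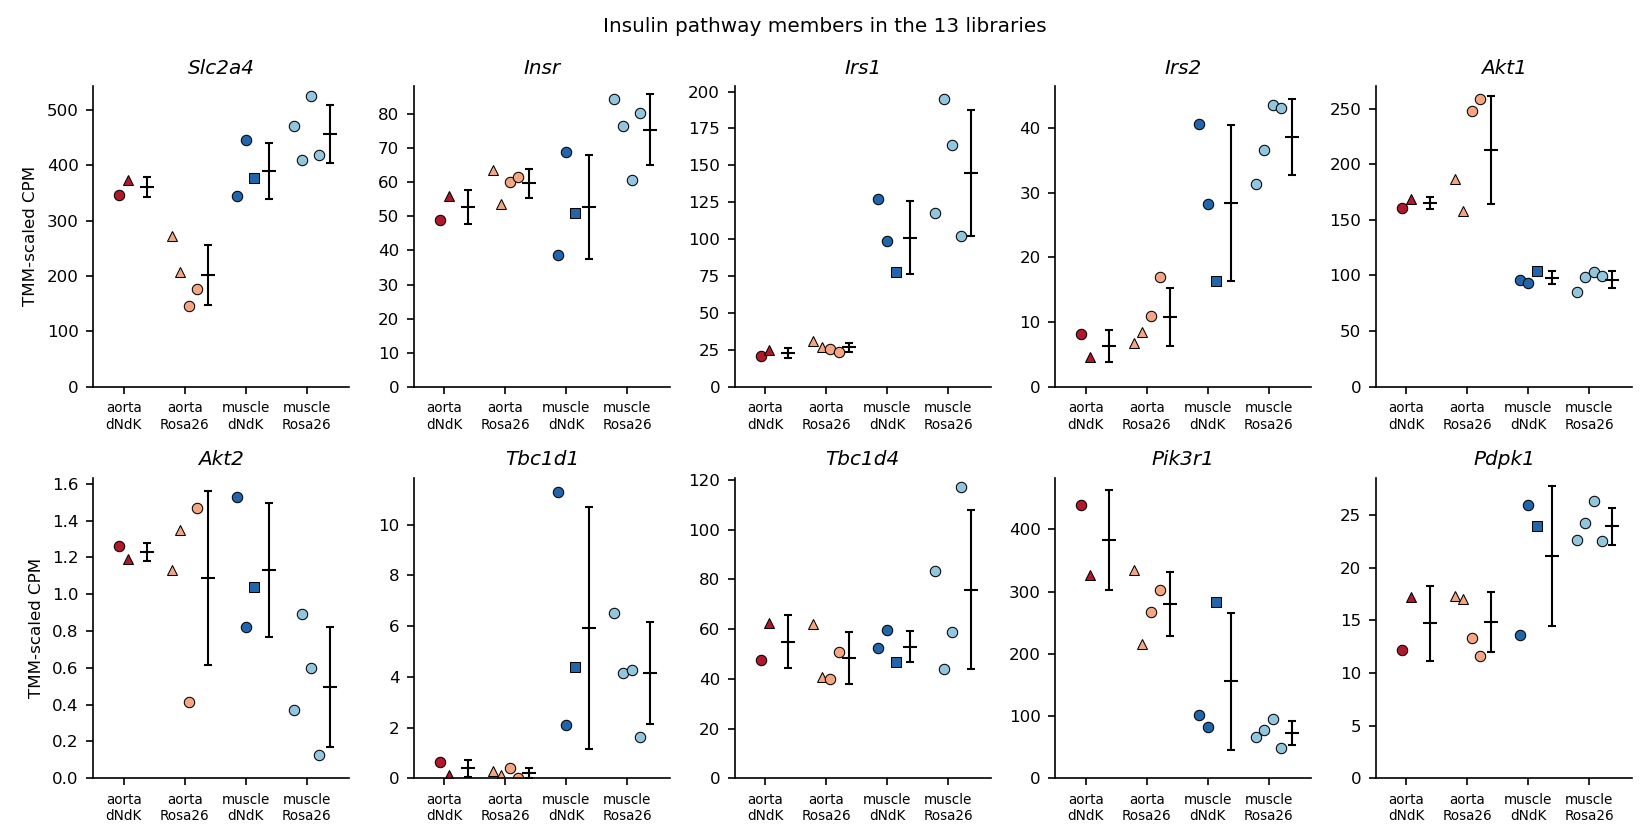
TMM-scaled CPM of the 10 members (y axis, a scale of its own in each panel) in the 4 groups, with a point for each library and the mean and SD as a bar beside it. Triangles mark the 3 aorta libraries with heart RNA and squares mark muscle dNdK 3, the muscle library with fat RNA. Irs1, Irs2 and Tbc1d1 lie lower in aorta than in muscle, Akt1 lies higher, and the square of Pik3r1 at 283 lies apart from the other muscle libraries at 49.4 to 102.

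The test behind each call was the quasi-likelihood test of edgeR on the counts, adjusted by Benjamini and Hochberg over all genes tested, with a threshold of 0.05. In aorta 1 of 11920 genes passed between genotypes (0.00839%) and 0 of the 9 members tested, while 5.98% of all genes had an unadjusted p under 0.05. In muscle 0 of 10491 genes passed (0%), and 0 of 9 members, with 792 genes (7.55%) at an unadjusted p under 0.05 and 7 called by DESeq2. For the difference of the genotype effect between tissues, 0 of 12318 genes passed (0%) and 0 of 10 members, with 1044 genes (8.48%) at an unadjusted p under 0.05 and 6 called by DESeq2. Between aorta and muscle in Rosa26 mice 6462 of 11058 genes passed (58.4%), 3424 of them higher in aorta (31%) and 3038 lower (27.5%). Plain library sizes turned that split to 6254 higher and 1298 lower. In dNdK mice 1801 of 11426 genes passed (15.8%), 597 higher in aorta (5.22%) and 1204 lower (10.5%), and plain library sizes gave 1582 higher and 730 lower. Fewer cells of a type and less RNA per cell cannot be told apart in such bulk samples. The tissue comparison in dNdK mice was added after the one in Rosa26 mice had been seen.

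Insr encodes the insulin receptor itself and lies at 8:3150922-3279649 of GRCm38.p6. It stood at 49.0 and 56.1 TMM-scaled CPM in aorta dNdK, against 63.5, 53.7, 60.1 and 61.4 in aorta Rosa26. In muscle it stood at 38.7, 68.9 and 50.9 TMM-scaled CPM in dNdK, against 84.4, 76.4, 60.6 and 80.4 in Rosa26. The groups overlapped in both tissues, and 2 of the 3 muscle dNdK libraries lay below every muscle Rosa26 library. The genotype log2 fold change was -0.16 ± 0.21 (SE) in aorta and -0.49 ± 0.24 in muscle, and the adjusted p was 0.869 and 0.662. Between tissues Insr was the member with the smallest differences. Its log2 fold change, aorta over muscle, was 0.03 ± 0.30 (adjusted p = 0.956) in dNdK mice and -0.33 ± 0.17 (adjusted p = 0.113) in Rosa26 mice, where plain library sizes turned it to 0.54 with an adjusted p of 0.0135.

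Irs1 and Irs2 encode the adaptors that the activated receptor phosphorylates, and IRS1 is the adaptor best known for insulin action in skeletal muscle. Irs1 lies at 1:82233105-82291439 and Irs2 at 8:10984681-11008929, where it overlaps 9530052E02Rik. How reads in that overlap were assigned is not given, so the overlap could change the Irs2 count. Of the 10 members, 8 had an entry in the RefSeq promoter table of GRCm38.p6, with 15 starts in all. Slc2a4 and Insr had no entry, so their promoters were not searched. The 150 bases before each start were searched on both strands for CACGTG, an E-box bound by basic helix-loop-helix factors, and TGTTTTG, the core of the insulin response element that FOXO factors bind. Of the 15 starts only those of Irs1 and Irs2 held either, and each held both. They are printed because these adaptors moved together between the tissues, with the matches in capitals, 5′ to 3′ on the minus strand, at 1:82291440-82291589 for Irs1 and 8:11008930-11009079 for Irs2.
Irs1: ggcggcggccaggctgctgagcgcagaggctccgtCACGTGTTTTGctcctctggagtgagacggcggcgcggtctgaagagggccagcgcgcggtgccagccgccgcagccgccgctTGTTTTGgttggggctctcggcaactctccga
Irs2: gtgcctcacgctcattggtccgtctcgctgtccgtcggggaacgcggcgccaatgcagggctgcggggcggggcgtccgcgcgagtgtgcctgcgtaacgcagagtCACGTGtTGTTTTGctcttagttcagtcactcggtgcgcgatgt

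In Irs1 CACGTG began 115 bases before the start and TGTTTTG began 111 and 32 bases before it, so the first TGTTTTG shares its opening TG with the E-box. In Irs2 CACGTG began 44 bases before the start and TGTTTTG began 37 bases before it, with 1 base between them. Among 32851 windows of the same length, 4.3% held CACGTG, 2.94% held TGTTTTG and 31 windows (0.0944%) held both. The motifs were chosen after the sequences had been read, and a match describes letters and not a working site.

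Irs1 stood at 20.7 and 25.2 TMM-scaled CPM in aorta dNdK, against 30.7, 27.1, 25.5 and 23.5 in aorta Rosa26. Muscle levels were 127, 98.6 and 77.7 TMM-scaled CPM in dNdK, against 118, 195, 164 and 102 in Rosa26. Every muscle library lay above every aorta library, and the genotypes overlapped within each tissue. Irs1 was 4.31-fold lower in aorta than in muscle in dNdK mice (log2 fold change -2.11 ± 0.34 SE, adjusted p = 0.014) and 5.4-fold lower in Rosa26 mice (-2.43 ± 0.23, adjusted p = 1.19e-05). For dNdK mice the adjusted p was 0.134 without aorta dNdK 1 and 0.103 without aorta dNdK 2. Between genotypes Irs1 had a log2 fold change of -0.19 ± 0.23 in aorta (adjusted p = 0.852) and -0.49 ± 0.29 in muscle (adjusted p = 0.715).

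Irs2 stood at 8.11 and 4.54 TMM-scaled CPM in aorta dNdK, against 6.83, 8.47, 11 and 17 in aorta Rosa26. The muscle libraries held 40.6, 28.3 and 16.4 in dNdK, against 31.4, 36.5, 43.6 and 43.1 in Rosa26. Its lowest muscle library was muscle dNdK 3, the library with fat RNA, which lay just under the highest aorta library. Irs2 was 4.4-fold lower in aorta in dNdK mice (log2 fold change -2.14 ± 0.52 SE, adjusted p = 0.0417) and 3.62-fold lower in Rosa26 mice (-1.86 ± 0.30, adjusted p = 0.000395). The dNdK call was lost with plain library sizes (adjusted p = 0.0643) and without any of 4 libraries in turn: 0.146 and 0.251 without aorta dNdK 1 and 2, and 0.0612 and 0.102 without muscle dNdK 1 and 2. Between genotypes its log2 fold change was -0.73 ± 0.46 in aorta (adjusted p = 0.757) and -0.42 ± 0.31 in muscle (adjusted p = 0.788). The count ratio of Irs1 over Irs2 overlapped among the groups. It ran over 2.56 to 5.56 in aorta dNdK, 1.38 to 4.49 in aorta Rosa26, 3.14 to 4.73 in muscle dNdK and 2.37 to 5.35 in muscle Rosa26.

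Pik3r1, at 13:101680761-101768217, encodes the p85 alpha regulatory subunit of phosphoinositide 3-kinase, which docks on the phosphorylated adaptors and both stabilises and restrains the catalytic subunit. It stood at 440 and 327 TMM-scaled CPM in aorta dNdK, against 335, 216, 267 and 303 in aorta Rosa26. In muscle it stood at 102, 82.3 and 283 TMM-scaled CPM in dNdK, against 67.0, 78.3, 95.8 and 49.4 in Rosa26. Muscle dNdK 3 reached the aorta range, and the other muscle libraries of both genotypes overlapped. In that library Adipoq stood at 141 and Ucp1 at 768 TMM-scaled CPM, against at most 9.06 and 7.66 in the other muscle libraries. The genotype log2 fold change in muscle was 1.12 ± 0.42 (SE, adjusted p = 0.656 by edgeR), and without muscle dNdK 3 it was 0.37 with an adjusted p of 0.973. In aorta it was 0.49 ± 0.26 (adjusted p = 0.757).

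Between tissues Pik3r1 was 3.86-fold higher in aorta in Rosa26 mice (log2 fold change 1.95 ± 0.24 SE, adjusted p = 7.04e-05), with no overlap. In dNdK mice the log2 fold change of 1.35 ± 0.56 did not pass (adjusted p = 0.146). Without muscle dNdK 3 it was 2.07 with an adjusted p of 0.00995. The count ratio of Pik3r1 over Insr, regulatory subunit over receptor, was 5.84 to 8.97 in aorta dNdK and 4.02 to 5.28 in aorta Rosa26. It was 1.2 to 5.55 in muscle dNdK and 0.614 to 1.58 in muscle Rosa26, so the Rosa26 tissues did not overlap on this ratio. The adipocyte marker sums above moved with Pik3r1 between the tissues and in muscle dNdK 3, and their part in its difference was not tested. The plot of Slc2a4 and Pik3r1 beside marker sums shows where muscle dNdK 3 lies.

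**Figure D2:**
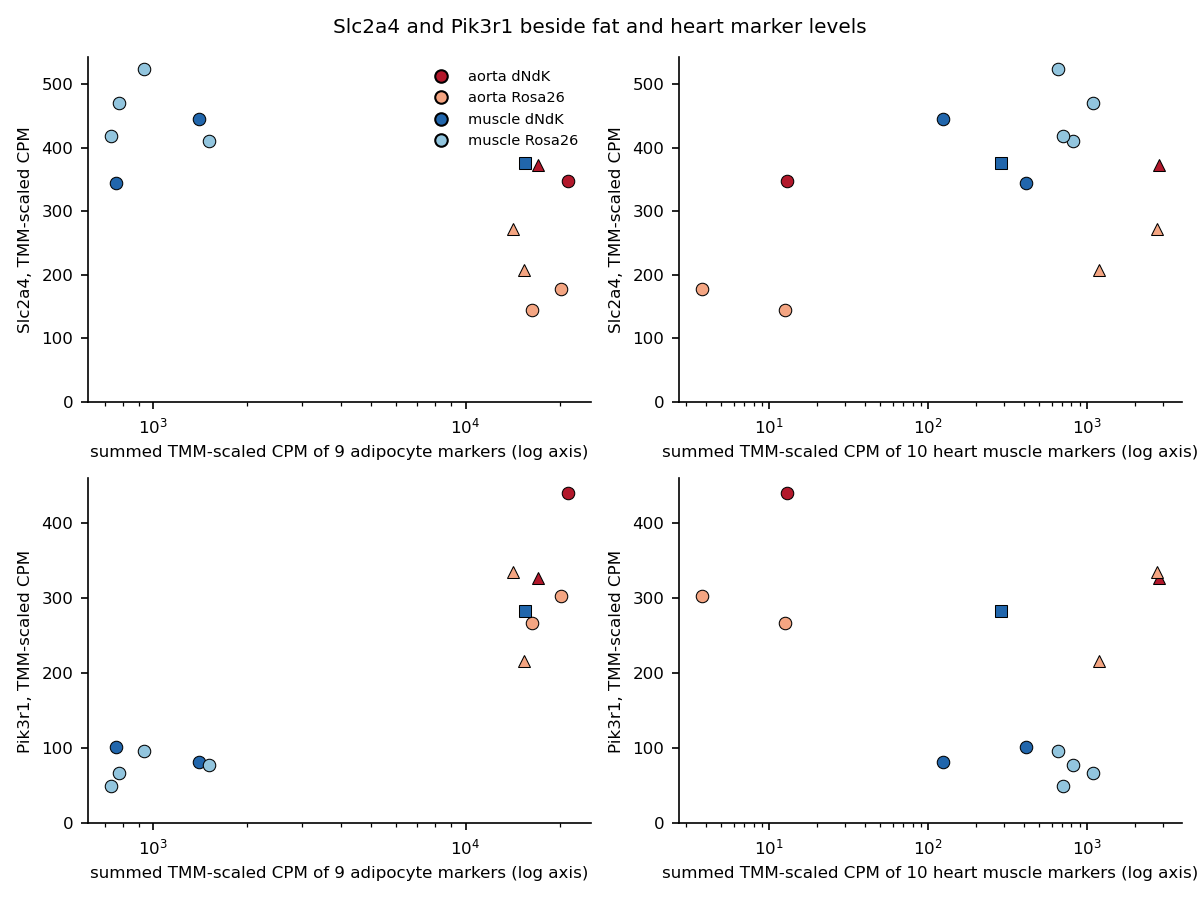
TMM-scaled CPM of Slc2a4 (upper row) and Pik3r1 (lower row) against the summed TMM-scaled CPM of 9 adipocyte markers (left) and 10 heart muscle markers (right), on log x axes, with a point for each of the 13 libraries. Triangles mark the 3 aorta libraries with heart RNA. The square marks muscle dNdK 3, which lies with the aorta libraries for Pik3r1 at 283 and an adipocyte sum of 15500. In the muscle libraries the heart marker sum was 124 to 1100, with Actc1 alone at 104 to 1100 and Myh6 at most at 4.28.

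Pdpk1, at 17:24073680-24155619 and overlapping Gm33409, encodes PDK1, the kinase that phosphorylates the activation loop of AKT. It stood at 12.2 and 17.2 TMM-scaled CPM in aorta dNdK, against 17.3, 17.0, 13.3 and 11.6 in aorta Rosa26. Muscle levels were 13.6, 25.9 and 23.9 in dNdK, against 22.6, 24.2, 26.3 and 22.5 in Rosa26. Muscle dNdK 1 was the only muscle library within the aorta range. The genotype log2 fold change was 0.01 ± 0.28 in aorta (adjusted p = 0.993) and -0.15 ± 0.25 in muscle (adjusted p = 0.919), and the aorta estimate took the other sign with plain library sizes (-0.13). In Rosa26 mice Pdpk1 was 1.61-fold lower in aorta (log2 fold change -0.69 ± 0.20 SE, adjusted p = 0.0138), a direction that plain library sizes turned to 0.2 with an adjusted p of 0.446. In dNdK mice the difference of -0.49 ± 0.37 did not pass (adjusted p = 0.387), and plain library sizes turned it to 0.08.

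Akt1 and Akt2 encode the kinases at the centre of the pathway, and AKT2 is the form tied to glucose uptake in mouse muscle and fat. Akt1 lies at 12:112653821-112674884, where Mir6939 and Gm30150 overlap it, and Akt2 at 7:27591552-27640826. Akt1 stood at 161 and 169 TMM-scaled CPM in aorta dNdK, against 187, 158, 248 and 259 in aorta Rosa26. The muscle libraries held 95.7, 93.5 and 104 in dNdK, against 84.8, 98.3, 103 and 99.8 in Rosa26. Muscle was even across both genotypes, and every aorta library lay above every muscle library. The aorta Rosa26 libraries split into a lower pair, which held heart RNA, and a higher pair, which did not, and both dNdK libraries lay with the lower pair.

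Akt1 was 2.22-fold higher in aorta than in muscle in Rosa26 mice (log2 fold change 1.15 ± 0.21 SE, adjusted p = 0.000969). In dNdK mice the difference was 0.79 ± 0.24 and did not pass (adjusted p = 0.0731), with an adjusted p of 0.00336 by DESeq2. Between genotypes the log2 fold change of Akt1 was -0.34 ± 0.27 in aorta (adjusted p = 0.792) and 0.05 ± 0.18 in muscle (adjusted p = 0.972). Akt2 was barely read in any library. Its counts were 14 and 16 in aorta dNdK, 15, 24, 6 and 7 in aorta Rosa26, 8, 7 and 13 in muscle dNdK, and 2, 8, 6 and 1 in muscle Rosa26. At this depth it passed the filter on low counts in aorta, in the comparison of tissues in dNdK mice and in the fit of all libraries, and its genotype log2 fold change in aorta was 0.23 ± 0.66 (adjusted p = 0.939). The tables do not show whether the transcript was scarce or its amplicon read poorly.

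Tbc1d1 and Tbc1d4 encode the RAB GTPase activating proteins that hold GLUT4 vesicles inside the cell until AKT phosphorylates them. TBC1D1 is known as the form of fast, glycolytic muscle, and TBC1D4, also called AS160, as the form of oxidative muscle and fat. Tbc1d1 lies at 5:64156305-64351486 and is overlapped by 4 other genes, and Tbc1d4 lies at 14:101442360-101609281 and is overlapped by Gm34417. Tbc1d1 had 7 and 2 counts in aorta dNdK and 4, 2, 6 and 0 in aorta Rosa26. In muscle it had 59, 18 and 55 counts in dNdK and 35, 37, 43 and 13 in Rosa26. The aorta libraries lay around the floor of 3 counts and every muscle library lay above them.

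In Rosa26 mice Tbc1d1 was 16.7-fold lower in aorta (log2 fold change -4.06 ± 0.64 SE, adjusted p = 0.000378), a value that rests on 12 counts over the 4 aorta libraries. In dNdK mice the log2 fold change was -3.88 ± 1.05 (adjusted p = 0.0543), with 9 counts over the 2 aorta libraries. It passed under 5 of 13 alternatives, among them DESeq2 (adjusted p = 0.00114). Between genotypes Tbc1d1 could be tested in muscle, where TMM-scaled CPM was 11.3, 2.11 and 4.40 in dNdK against 6.54, 4.14, 4.28 and 1.63 in Rosa26. The log2 fold change was 0.55 ± 0.62 (adjusted p = 0.875), and it took the other sign, -0.32, without muscle dNdK 1.

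Tbc1d4 stood at 47.5 and 62.4 TMM-scaled CPM in aorta dNdK, against 62.2, 40.6, 39.8 and 50.7 in aorta Rosa26. In muscle it stood at 52.6, 59.6 and 46.9 in dNdK, against 83.5, 43.8, 59.0 and 117 in Rosa26. All 4 groups overlapped, and muscle Rosa26 spread most. The genotype log2 fold change was 0.21 ± 0.26 in aorta (adjusted p = 0.854) and -0.49 ± 0.32 in muscle (adjusted p = 0.743). Between tissues it was 0.08 ± 0.26 in dNdK mice (adjusted p = 0.85) and -0.65 ± 0.30 in Rosa26 mice (adjusted p = 0.0829). Plain library sizes turned the Rosa26 estimate to 0.23, and without muscle Rosa26 2 it was -0.86 with an adjusted p of 0.0242. The count ratio of Tbc1d4 over Tbc1d1 was 75.3 to 419 in aorta dNdK and 96 to 362 in the 3 aorta Rosa26 libraries with a Tbc1d1 count. In muscle it was 4.66 to 28.2 in dNdK and 10.6 to 72 in Rosa26, below every aorta ratio.

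Slc2a4, at 11:69942286-69948216 with no overlapping RefSeq gene, encodes GLUT4, the transporter that the pathway delivers to the surface. It stood at 347 and 373 TMM-scaled CPM in aorta dNdK, against 272, 208, 145 and 177 in aorta Rosa26. Muscle levels were 345, 445 and 376 in dNdK, against 470, 410, 524 and 419 in Rosa26. From lowest to highest mean the groups were aorta Rosa26, aorta dNdK, muscle dNdK and muscle Rosa26. Aorta Rosa26 lay below every library of the other groups, while aorta dNdK overlapped muscle dNdK, and muscle dNdK overlapped muscle Rosa26.

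In aorta Slc2a4 averaged 360 ± 18 TMM-scaled CPM in dNdK (SD, n = 2) and 201 ± 54.2 in Rosa26 (SD, n = 4). The log2 fold change was 0.87 ± 0.27 (SE, adjusted p = 0.757 by edgeR), so the difference did not pass over all genes. It was the only member of the 9 tested whose aorta groups did not overlap, and 17.2% of all genes tested did not overlap either, 7.73% being higher in dNdK. The adjusted p ran from 0.262 to 1 over the alternatives. The 2 aorta Rosa26 libraries with heart RNA were the higher of that group at 272 and 208 TMM-scaled CPM. Without the 3 aorta libraries with heart RNA the log2 fold change was 1.15 (adjusted p = 0.313), with 347 TMM-scaled CPM in the remaining dNdK library against 145 and 177 in Rosa26.

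Those 2 Rosa26 libraries without heart RNA also had more of the endothelial marker Pecam1, at 813 and 636 TMM-scaled CPM, against 253 and 291 in aorta dNdK and 305 and 233 in the other Rosa26 libraries. The 9 endothelial markers summed to 817 to 881 TMM-scaled CPM in aorta dNdK and 779 to 1940 in aorta Rosa26, and all 8 that were tested had an estimate below 0. Macrophage marker sums did not overlap, at 211 to 254 in aorta dNdK and 267 to 541 in aorta Rosa26, with 6 of 6 estimates below 0. Lymphocyte marker sums were 12.1 to 19.2 in aorta dNdK and 5.89 to 362 in aorta Rosa26, with 7 of 7 estimates below 0 and a median of -3.3. No marker of these 3 lists passed after adjustment. Adipocyte sums overlapped between the genotypes in aorta, with 7 of 9 estimates above 0 and a median of 0.12. The 8 brown adipocyte markers split into 4 estimates above 0 and 4 below. Heart muscle sums overlapped too, with 7 of 7 tested estimates above 0 and a median of 0.49. No adipocyte, brown adipocyte or heart muscle marker passed after adjustment. The part of cell make-up in the Slc2a4 difference was not tested.

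In muscle Slc2a4 averaged 389 ± 50.8 TMM-scaled CPM in dNdK (SD, n = 3) and 456 ± 52.6 in Rosa26 (SD, n = 4). The log2 fold change was -0.21 ± 0.19 (adjusted p = 0.831). The difference of the genotype effect between aorta and muscle was 1.10 ± 0.33 on the log2 scale (SE, adjusted p = 0.583 by edgeR). It stayed between 0.82 and 1.34 over the 21 alternatives, with an adjusted p of 0.168 to 0.922. That fit treats libraries as independent although 4 animals gave both tissues, and with the animal as a random effect in limma-voom the difference was 1.16 ± 0.28 (adjusted p = 0.471). The plot of genotype estimates shows Slc2a4 as the member for which the aorta and muscle estimates lie furthest apart among those tested in both tissues.

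**Figure D3:**
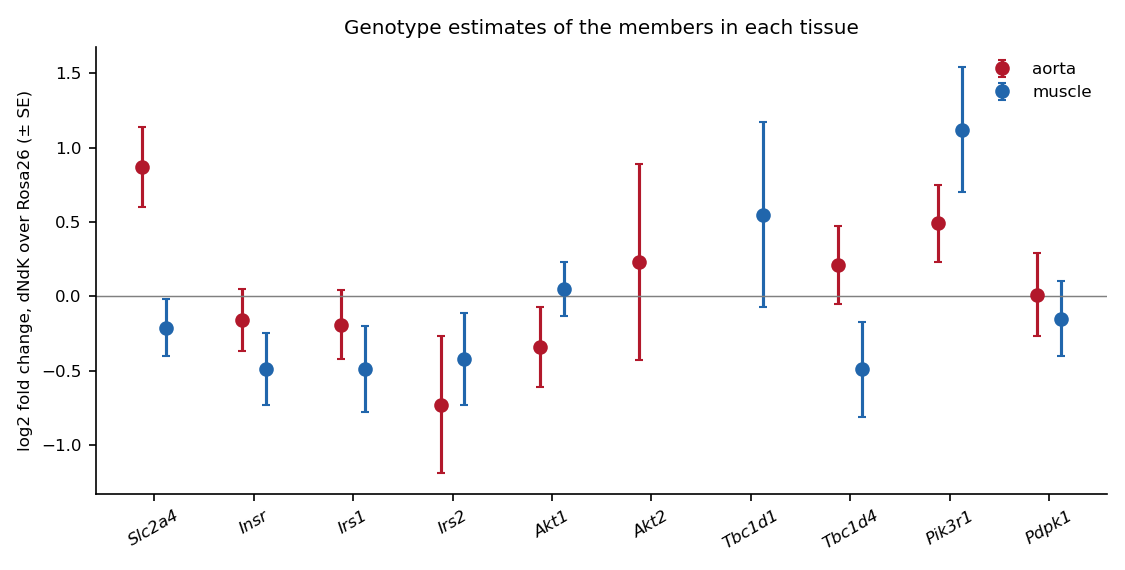
Log2 fold change, dNdK over Rosa26 (y axis, with SE bars), of each member in aorta and in muscle. A missing point is a gene left out by the filter on low counts. Slc2a4 in aorta lies at 0.87 and Pik3r1 in muscle at 1.12, where 0.37 remained without muscle dNdK 3, and no member passed after adjustment.

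Between tissues Slc2a4 was 2.28-fold lower in aorta than in muscle in Rosa26 mice (log2 fold change -1.19 ± 0.22 SE, adjusted p = 0.000977). With plain library sizes that difference was -0.31 and did not pass (adjusted p = 0.234), and without the heart-RNA libraries it was -1.51. In dNdK mice the difference was -0.08 ± 0.30 (adjusted p = 0.879), and plain library sizes gave 0.51 (adjusted p = 0.24). Plain CPM of Slc2a4 was 449 and 467 in aorta dNdK and 213 to 373 in aorta Rosa26, against 266 to 356 in muscle dNdK and 312 to 402 in muscle Rosa26. On that scale both aorta dNdK libraries lay above every other library. The plot of tissue estimates shows both scalings for each member.

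**Figure D4:**
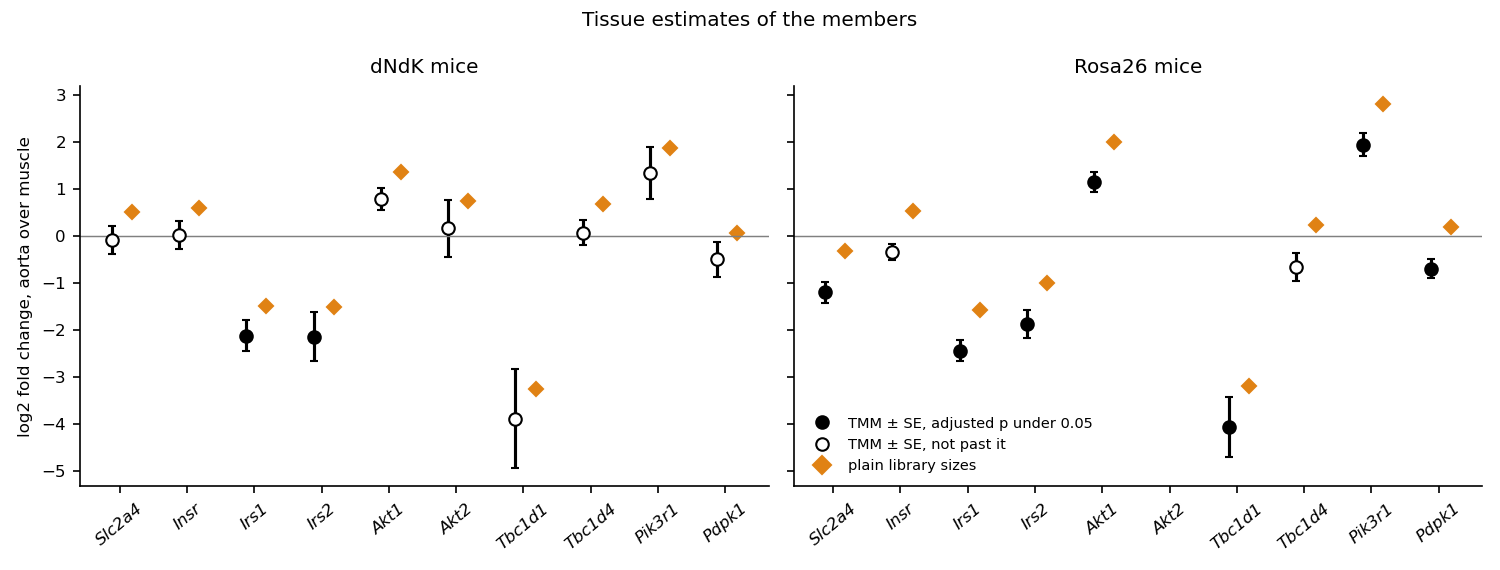
Log2 fold change, aorta over muscle (y axis), of each member in dNdK mice (left) and Rosa26 mice (right). Circles with SE bars are TMM-scaled estimates, filled where the adjusted p was under 0.05, diamonds are estimates with plain library sizes, and Akt2 was left out by the low-count filter in Rosa26 mice. Irs1, Irs2 and Tbc1d1 stayed below 0 and Akt1 and Pik3r1 above 0 under both scalings, while Insr, Tbc1d4 and Pdpk1 in Rosa26 mice and Slc2a4 and Pdpk1 in dNdK mice changed side.

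Over the members as a group, 7 of 9 passed between the tissues in Rosa26 mice, where 58.4% of all genes did. Their median log2 fold change was -0.69, beside 0.08 for all genes tested, and plain library sizes turned it to 0.2, beside 0.96 for all genes. The same 7 members were called without the heart-RNA libraries, and plain library sizes called 6, which left out Slc2a4 and Pdpk1 and added Insr. In dNdK mice 2 of 10 passed, where 15.8% of all genes did, and 0 passed without either of the aorta dNdK libraries. Without muscle dNdK 3 Irs1, Irs2, Tbc1d1 and Pik3r1 passed.

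The pathway was also read from 6 gene lists, and between genotypes 0 genes of any list passed in aorta, in muscle or in the difference between them. The lists are not wholly apart from the members, since the FOXO targets include Insr and Irs2. Between tissues in Rosa26 mice, 33 of 44 tested genes of the list of other insulin signal genes passed (75%, where 58.4% of all genes did), 13 higher in aorta and 20 lower, with a median log2 fold change of -0.53. In dNdK mice, where 15.8% of all genes passed, 4 of the 44 were higher and 7 lower (25%). For Rosa26 mice plain library sizes turned that balance to 20 higher and 4 lower. The median turned to 0.36, beside 0.96 for all genes tested, and that shift of all genes also lies in the plain counts of the lists below. Sh2b2, an adaptor of the receptor, stood at 91.3 to 169 TMM-scaled CPM in aorta Rosa26 against 2.78 to 6.91 in muscle Rosa26. Pde3b, the phosphodiesterase through which insulin restrains lipolysis in fat, stood at 199 to 447 against 3.55 to 15.8. Both also stood high in muscle dNdK 3, at 56.5 and 223 TMM-scaled CPM. Gys1, the glycogen synthase of muscle, was 5.39-fold lower in aorta (log2 fold change -2.43 ± 0.27 SE, adjusted p = 3.36e-05), and Tsc1, a restraint on mTORC1, was 4.37-fold lower (adjusted p = 0.000161).

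Among 18 tested brakes on insulin signalling, 5 were higher in aorta and 4 lower in Rosa26 mice (50%, near the 58.4% of all genes), with a median of 0.04, and plain library sizes gave 10 higher and 3 lower. In dNdK mice 2 were higher and 3 lower (27.8%, where 15.8% of all genes passed). Ptprf, a receptor phosphatase, stood at 67.8 to 141 TMM-scaled CPM in aorta Rosa26 against 2.99 to 6.63 in muscle Rosa26. Pik3ip1, an inhibitor of phosphoinositide 3-kinase, was 7.05-fold lower in aorta (adjusted p = 5.05e-05), and Inppl1, the lipid phosphatase SHIP2, was 2.54-fold lower (adjusted p = 0.000566). Mstn, the muscle growth inhibitor myostatin, stood at 0 to 0.112 TMM-scaled CPM in aorta Rosa26 and 115 to 197 in muscle Rosa26.

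Of 37 tested GLUT4 vesicle and trafficking genes, 11 were higher in aorta and 13 lower in Rosa26 mice (64.9%, near the 58.4% of all genes), with a median of -0.16, and plain library sizes gave 18 higher and 4 lower with a median of 0.71. In dNdK mice 4 were higher and 3 lower (18.9%, near the 15.8% of all genes). Rab10, a GTPase on which TBC1D4 acts in fat cells, was 3.33-fold lower in aorta (log2 fold change -1.73 ± 0.20 SE, adjusted p = 3.56e-05), and Rab4a was 4.13-fold lower (adjusted p = 3.06e-05). Trarg1, a GLUT4 trafficking regulator of fat cells, stood at 188 to 655 TMM-scaled CPM in aorta Rosa26 against 5.17 to 18.6 in muscle Rosa26, and at 410 in muscle dNdK 3. Myo5b, a motor of recycling vesicles, stood at 27.7 to 48.8 against 0.199 to 0.373.

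Of 11 tested glucose transporters and hexokinases, 5 were higher in aorta and 2 lower in Rosa26 mice (63.6%, near the 58.4% of all genes), with a median of 0.6 that plain library sizes raised to 1.49. Of the 12 tested in dNdK mice 1 was higher and 0 were lower (8.33%, where 15.8% of all genes passed). Slc2a5, a fructose transporter, stood at 24.9 to 53.2 TMM-scaled CPM in aorta Rosa26 and at or under 0.373 in muscle Rosa26, with 24.7 in muscle dNdK 3. Hk1 was 8.69-fold higher in aorta (adjusted p = 4.05e-05) and Hk3 2.81-fold higher (adjusted p = 0.033), while Slc2a12, the transporter GLUT12, was 7.29-fold lower (adjusted p = 0.000433). In the muscle genotype comparison Hk1 stood at 11.5, 6.33 and 14.7 TMM-scaled CPM in dNdK, against 2.99, 3.24, 5.17 and 5.75 in Rosa26, with no overlap. Its log2 fold change was 1.36 ± 0.39 (adjusted p = 0.656), and 5.99% of all genes did not overlap in that comparison.

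Of 26 tested regulators of Slc2a4 transcription, 8 were higher in aorta and 12 lower in Rosa26 mice (76.9%, where 58.4% of all genes passed), with a median of -0.67, and plain library sizes gave 11 in each direction. In dNdK mice 1 was higher and 8 lower (34.6%, where 15.8% of all genes passed). Mef2c, a factor that binds the Slc2a4 promoter in muscle, was 40.9-fold lower in aorta (log2 fold change -5.35 ± 0.36 SE, adjusted p = 1.1e-06). Prkaa2, a catalytic subunit of the kinase AMPK, was 15-fold lower, and Camk2g, a calcium-dependent kinase, was 14.6-fold lower. Camk2a stood at 0.21 to 2.63 TMM-scaled CPM in aorta Rosa26 and 422 to 483 in muscle Rosa26. Between genotypes in aorta, Cebpb stood at 512 and 479 TMM-scaled CPM in dNdK against 289 to 389 in Rosa26, and Pparg, the fat cell factor, at 269 and 288 against 136 to 238. Neither passed, with an adjusted p of 0.757 for both. In muscle the 2 regulators with the smallest p, Pparg and Cebpa, stood high in muscle dNdK 3 alone, at 131 and 358 TMM-scaled CPM against at most 12.9 and 37.7 in the other muscle libraries.

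Of 18 tested FOXO targets, 5 were higher in aorta and 7 lower in Rosa26 mice (66.7%, near the 58.4% of all genes), with a median of -0.33, and plain library sizes gave 8 higher and 4 lower. Of the 19 tested in dNdK mice 0 were higher and 3 lower (15.8%, which was also the share of all genes). The member Irs2 is among those 3, so it is counted both here and with the members. Fbxo32, a ubiquitin ligase of muscle wasting, was 39.8-fold lower in aorta (adjusted p = 3.25e-07). Trim63, the other such ligase, stood at 10.4 and 4.1 TMM-scaled CPM in the 2 aorta Rosa26 libraries with heart RNA and at 0.069 and 0 in those without, against 396 to 627 in muscle Rosa26. Bcl6 was 3.62-fold lower in aorta (adjusted p = 8.91e-05). Pck1, an enzyme of glucose and glyceride synthesis, stood at 978 to 2560 TMM-scaled CPM in aorta Rosa26 against 3.98 to 48.4 in muscle Rosa26, and at 685 in muscle dNdK 3. In aorta dNdK Pck1 stood at 681 and 921 TMM-scaled CPM and did not overlap aorta Rosa26, where 17.2% of all genes did not overlap. The log2 fold change of -0.95 ± 0.43 did not pass (adjusted p = 0.757 by edgeR). The plot of the lists shows the spread of each.

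**Figure D5:**
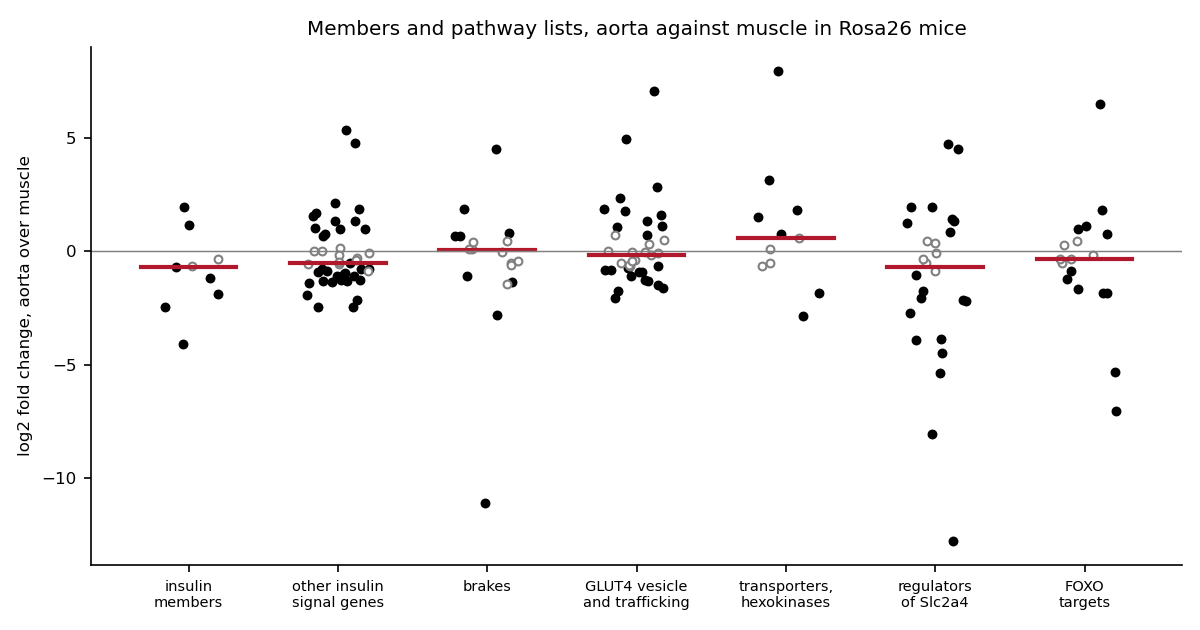
Log2 fold change, aorta over muscle in Rosa26 mice (y axis), of the tested members and of the tested genes of the 6 pathway lists, with a point for each gene, filled where the adjusted p was under 0.05, and a line at the median. Myod1 and Mstn, the lowest points, had no or almost no counts in aorta, so their plotted values depend on the fit. The medians lie at -0.69 for the members and at 0.6 for transporters and hexokinases, the highest of the 7.

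The genotype comparisons gave further list genes that did not pass. In aorta Rhoq, the GTPase TC10, stood at 211 and 182 TMM-scaled CPM in dNdK against 172, 114, 95.3 and 125 in Rosa26. Rala, a GTPase that tethers GLUT4 vesicles, stood at 147 and 162 in dNdK against 115, 112, 54.2 and 44.2 in Rosa26. Neither gene overlapped between the genotypes, and each had an adjusted p of 0.757. Foxo6 stood at 0.721 and 1.12 TMM-scaled CPM in aorta dNdK against 2.47 to 7.25 in aorta Rosa26, and at 5.17, 13.4 and 8.49 in muscle dNdK against 14 to 39 in muscle Rosa26. The genotypes did not overlap in either tissue, with an edgeR adjusted p of 0.757 in aorta and 0.656 in muscle. Foxo6 had 8 and 15 counts in aorta dNdK. Of all genes tested 17.2% did not overlap in aorta and 5.99% in muscle, and the genes named here were picked by their small p. In muscle Slc2a12 stood at 6.51, 13 and 7.04 in dNdK against 14.1 to 21.8 in Rosa26, and Inppl1 at 94.7, 116 and 106 against 131 to 187, both with an adjusted p of 0.656. For the difference between tissues the list genes with the smallest p were Rab13 (-1.05 ± 0.35), Hk1 (-1.57 ± 0.56) and Slc2a5 (-5.26 ± 1.9), each with an adjusted p of 0.583. The Slc2a5 value rests on muscle dNdK 3, the library with fat RNA, since the muscle counts were 0, 3 and 308 in dNdK and 2, 2, 1 and 0 in Rosa26.

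The genes most like Slc2a4 were ranked by Pearson correlation over the 13 libraries, on log2 TMM-scaled CPM centred within each tissue, among 6594 genes. They were Cfl2, a cofilin of muscle actin (r = 0.94), Zfp637 (0.91), Ogfod1 (0.91), the proteasome subunit Psmb7 (0.91) and Pgm2, an enzyme of sugar phosphate metabolism (0.90). Cfl2 stood at 148 and 146 TMM-scaled CPM in aorta dNdK against 122, 89.5, 55.6 and 67.1 in aorta Rosa26, and the 4 aorta Rosa26 libraries stood in the same order as for Slc2a4. Within the 6 aorta libraries its r was 0.99, and within the 7 muscle libraries 0.75. Cfl2 was picked for its high r over these same libraries, so its library order and these values are no separate evidence. Of the members ranked, which left out Akt2 and Tbc1d1, Pdpk1 (0.41) and Tbc1d4 (0.39) were the most like Slc2a4. Pik3r1 (0.09), Insr (0.08) and Irs1 (0.05) were near 0 over the 13 libraries, and Irs2 (-0.48) and Akt1 (-0.69) were negative. The values near 0 joined opposite signs in the tissues. In aorta and muscle r was 0.66 and -0.38 for Pik3r1, -0.49 and 0.61 for Insr, and -0.17 and 0.31 for Irs1. These correlations describe libraries that share tissue pieces, depth and the heart and fat RNA given above, and carry no test.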

How the data were processed

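Each deposited table holds raw read counts per gene of 1 amplicon library, made by the authors with STAR 2.5.2b on GRCm38.p6 (mm10) per the submitters' processing notes, which also name edgeR 3.28.1 and limma 3.42.2. Column 2, reads on either strand, was used, so strand does not separate overlapping or antisense genes. How reads in such overlaps were assigned is not given. Without molecular identifiers, PCR copies of a molecule are counted more than once. In R 4.3.3, edgeR 4.0.16 filtered genes with filterByExpr, scaled them by TMM and tested each tissue alone with the quasi-likelihood test. A fit over all 13 libraries tested the difference between tissues, and aorta was set against muscle within each genotype. Each SE was derived from the estimate and its F statistic. Alternatives used DESeq2 1.42.0, limma-voom (limma 3.58.1), other scalings, no filter, blocks and left-out libraries. Plain library sizes and the animal as a random effect (limma-voom) were added after seeing the data. The pipeline was tested on simulated data. By the deposited names 3 Rosa26 animals gave both tissues. Their libraries deviated from the group means with an r of 0.24 to 0.28 between the tissues. Aorta and muscle Rosa26 2, from different animals, reached 0.3, so these values do not show whether tissues of an animal deviated together. Named list genes were those with the smallest p, up to 4 of each list past the threshold or otherwise 2, and 1 gene so named is not reported here. Members and lists were chosen with earlier results of these data known. No 2 libraries held the same counts.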

Additional observations from a re-analysis of the deposited data

How the results depend on the processing

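Over 47 member estimates and 754 alternative values, 691 kept their direction and side of the threshold, 12 gained a call, 10 lost it and 41 changed sign. The cause was not tested for any of these changes. In aorta the count of genes called between genotypes was 1, and it was 13 by DESeq2, 163 with the replicate block, 0 with all 13 libraries in 1 fit, 30 without the heart-RNA libraries and 0 to 1 with each library left out. In muscle it was 0, and 7 by DESeq2 and 0 to 3 with each library left out (3 without muscle dNdK 1). The difference between tissues gave 0 genes, and 6 by DESeq2. Aorta against muscle in dNdK mice gave 1801 genes, and 3141 by DESeq2, 3035 with the replicate block, 3334 with all 13 libraries, 369 without the heart-RNA libraries and 322 to 3126 with each library left out. The low counts came without aorta dNdK 1 (322), aorta dNdK 2 (369) and muscle dNdK 2 (690), and the high count without muscle dNdK 3.

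Library numbers in the labels served as the replicate block. By the deposited names only number 4 in Rosa26 mice was the same animal in both tissues, animal 30. Same-numbered libraries correlated at -0.35 to 0.30. With that replicate block Pik3r1 between tissues in dNdK mice was 2.07 (adjusted p = 0.00617), Tbc1d4 there was -0.02 and Pdpk1 between genotypes in aorta was -0.2. With the animal as block in Rosa26 mice no member call changed between tissues. With the animal as a random effect in limma-voom, an alternative chosen after seeing the data, no member call changed for the difference between tissues or between tissues in Rosa26 mice, and Irs2 in that difference was 0.14. In dNdK mice 1 animal gave both tissues and that fit could not be made.

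Other estimates also changed sign. In aorta Pdpk1 was -0.02 by limma-voom, -0.13 with plain library sizes and -0.23 to 0.22 with each library left out, and Akt2 was -0.04 to 0.39 so. In muscle, with each library left out, Akt1 was -0.02 to 0.08, Tbc1d1 -0.32 to 0.95 and Pdpk1 -0.31 to 0.06. For the difference between tissues, plain library sizes gave -0.06 for Tbc1d1 and -0.12 for Pdpk1, and leaving out each library gave -0.77 to 0.07 for Irs2, -1.09 to 1.05 for Tbc1d1, -0.92 to 0.16 for Pik3r1 and -0.09 to 0.41 for Pdpk1. Between tissues in Rosa26 mice, plain library sizes gave 0.54 for Insr (adjusted p = 0.0135, past the threshold), 0.23 for Tbc1d4 and 0.2 for Pdpk1. In dNdK mice they gave 0.51 for Slc2a4 and 0.08 for Pdpk1. There Insr was -0.01 with no filter and -0.07 without the heart-RNA libraries, where Tbc1d4 was -0.13. Leaving out each library gave -0.14 to 0.02 for Slc2a4, -0.14 to 0.26 for Insr, -0.01 to 0.44 for Akt2 and -0.13 to 0.25 for Tbc1d4.

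Where an arm was left with 1 library, that library is assumed to vary like those of the other groups. Depth limits Akt2 and aorta Tbc1d1 most, since a floor of 3 counts stood for 0.219 to 0.765 CPM.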
